A study of Mus musculus with 19 samples.

Results

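Purkinje cells of the cerebellum were compared with somatostatin (SST) interneurons of the neocortex across all measured microRNAs (miRNAs). The comparison was defined by the sample labels and took 5 of the 19 libraries of the study, 3 from Purkinje cells and 2 from SST cells. In each library Ago2, the protein that carries miRNAs to their targets, was immunoprecipitated from mouse brain at postnatal day 56, and RNA of 19 to 24 nt was sequenced. The Purkinje libraries came from cerebella of mice on a C57BL/6 and black swiss background, 3 tissues pooled per library, precipitated with anti-myc. The SST libraries came from neocortices of mice on a C57BL/6 and 129 background, 4 tissues pooled per library, also with anti-myc, so both cell classes carried a myc-tagged Ago2. The sources used here do not name the driver of the tagged protein. The regional comparison used whole cerebellum (3 libraries, C57BL/6 and black swiss) and whole neocortex (3 libraries, C57BL/6 and BALB/c), each from 1 tissue and precipitated with anti-Ago2. PV (2 libraries) and Gad2 (3 libraries) cells of the neocortex (129, 4 tissues, anti-myc) and Camk2a cells of the neocortex (3 libraries, BALB/c, 1 tissue, anti-myc) gave further levels. Brain region, strain background and the pooling of tissues all changed with the cell class and cannot be told apart from it. No label says that replicates came from separate animals, so the p-values reflect the spread among libraries alone, which may be technical.

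A miRNA guides Ago2 to messenger RNAs that pair with its seed, the bases from position 2 to 8, and lowers their translation and stability. Each precursor hairpin can yield a mature strand from either arm, of which the guide is usually far more abundant than the minor strand, written with an asterisk or with 3p or 5p. Purkinje cells are the large GABAergic output neurons of the cerebellar cortex, and SST cells are GABAergic interneurons of the neocortex that contact the dendrites of pyramidal cells. Both are inhibitory neurons. The libraries measured no messenger RNA and no miRNA was fixed as a defining marker of either class, so the labels could not be checked against cell markers.

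The mature sequences below belong to the miRNAs on which the results turned, with the seed in capitals. They were taken from RefSeq (GRCm38.p6), in which 352 of the 522 tested names and 141 of the 178 names of at least 100 RPM had a match. The first set is let-7, with 2 members that were higher in Purkinje cells and let-7g, which was not called on the deposited scale.
let-7i: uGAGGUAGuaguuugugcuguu
miR-98: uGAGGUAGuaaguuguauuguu
let-7g: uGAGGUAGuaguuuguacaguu
A second set holds miR-34a, higher in Purkinje cells, and miR-34b-5p, lower, which share a seed.
miR-34a: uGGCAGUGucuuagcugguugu
miR-34b-5p: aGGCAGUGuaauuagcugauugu
The third set is the miR-15/16 family, with 1 member higher and 2 lower on the same seed.
miR-15b: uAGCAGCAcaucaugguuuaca
miR-15a: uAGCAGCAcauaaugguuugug
miR-16: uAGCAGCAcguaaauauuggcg
The next pairs, of miR-7 and of miR-132 and miR-212, share a seed and were all lower.
miR-7a: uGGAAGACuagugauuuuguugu
miR-7b: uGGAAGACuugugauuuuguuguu
miR-132: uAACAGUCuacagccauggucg
miR-212-3p: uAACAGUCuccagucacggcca
The last set gives single miRNAs of large change, miR-138 and miR-133b higher and the others lower in Purkinje cells.
miR-138: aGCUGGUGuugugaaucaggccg
miR-133b: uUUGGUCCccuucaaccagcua
miR-137: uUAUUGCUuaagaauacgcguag
miR-335-5p: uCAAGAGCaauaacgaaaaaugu
miR-153: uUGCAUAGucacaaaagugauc
miR-130a: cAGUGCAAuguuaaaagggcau
miR-490-3p: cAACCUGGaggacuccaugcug
miR-129-2-3p: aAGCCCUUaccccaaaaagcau

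The Purkinje libraries held 2063132 to 3378889 miRNA reads and the SST libraries 1278770 and 2457681, within a range of 1229834 to 14249087 over all 19. Levels are reads per 1000000 miRNA reads (RPM), each a share of the miRNA pool of a library and not an amount per cell, so fewer cells of a type and less RNA per cell cannot be told apart. In the 5 libraries 3 reads, the floor used here for counting error, equalled 0.888 to 2.35 RPM. Between 445 and 447 names were detected in Purkinje libraries and 460 to 470 in SST libraries. The 10 most abundant miRNAs took 67.9% to 68.6% of reads in Purkinje libraries and 63.1% to 64.4% in SST libraries.

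Of 522 tested names, limma called 68 higher (13.0%) and 202 lower (38.7%) in Purkinje cells at an adjusted p under 0.05, or 51.7% in either direction. At 100 RPM or more, 38 of 178 were higher (21.3%) and 83 lower (46.6%), 68.0% in all. A called change of 2-fold or more was seen in 234 of 522 names (44.8%). The 3 Purkinje values lay apart from the 2 SST values for 311 of 522 names (59.6%) and for 134 of the 178 (75.3%). The median log2 change was -0.53 over all names. Other scalings, by trimmed means (TMM) or by median ratios, brought this median to between 0 and 0.04, and the higher share of the calls then came to 43.8% to 47.7%, against 25.2% with the deposited scale. A call is said to hold where it was made in the same direction on the deposited scale and with all 5 other scalings or count tests. Of the calls, 62 higher (11.9% of the 522 names) and 132 lower (25.3%) held, or 37.2% in all. No called name was called in the opposite direction by any of the 5. These shares and those of the calls are the background for each count of list members below. A further 45 names not called on the deposited scale were called higher by all 5 of the others, and 0 were called lower by all 5, so a name described as not called is so on the deposited scale. All log2 changes below are Purkinje over SST on the log2(value + 1) scale of the deposited values, which understates changes of low names.

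let-7i, a member of the let-7 family that restrains growth and proliferation genes, was 8-fold higher in Purkinje cells. Its level was 15972, 15783 and 17443 RPM in Purkinje libraries, against 1759.5 and 2383 RPM in SST libraries (log2 change 3.00 ± 0.19 (SE), limma adjusted p = 4.3e-11). Both SST libraries lay far below every Purkinje library. let-7g, which shares its seed, had 13885, 14139 and 13245 RPM in Purkinje libraries, against 13221 and 15211 RPM in SST libraries, and the groups overlapped (log2 change -0.04 ± 0.19 (SE)). It was not called on the deposited scale but was called higher with all 5 other scalings or count tests. miR-98, a let-7 member encoded in an intron of Huwe1 beside let-7f on chromosome X, had 2129, 2104 and 1939 RPM in Purkinje libraries, against 675 and 549 RPM in SST libraries (log2 change 1.76 ± 0.20 (SE), limma adjusted p = 1.8e-07). let-7a was higher by a smaller amount (log2 change 0.60 ± 0.19 (SE)). Of the 9 tested guides with the seed GAGGUAG, 3 were higher, none was lower and 6 were not called, and the 3 calls held. With each of the 5 other scalings or count tests 7 of the 9 were called higher. The whole let-7 list of 21 names had 4 higher and 3 lower, with a median log2 change of -0.04 beside -0.53 over all names. Of the lower calls none held, and with TMM factors 9 members were higher and 1 lower.

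miR-138, which limits dendritic spine size in rat hippocampal neurons, was 3.44-fold higher and among the 10 most abundant miRNAs of Purkinje cells. It had 43287, 36716 and 53529 RPM in Purkinje libraries, against 11987 and 13643 RPM in SST libraries (log2 change 1.78 ± 0.26 (SE), limma adjusted p = 6.8e-06). The lowest Purkinje library held well over the highest SST library. Hairpins on chromosomes 8 and 9 encode miR-138, and the minor strands of both hairpins were higher too: miR-138-2* had 264, 334 and 331 RPM in Purkinje libraries, against 58.6 and 62.7 RPM in SST libraries and miR-138-1* had 41.2, 49.6 and 21.6 RPM in Purkinje libraries, against 9.38 and 11.8 RPM in SST libraries (log2 changes 2.34 ± 0.23 (SE) and 1.74 ± 0.45 (SE)). miR-34a, which p53 induces and which represses cell-cycle genes, had 5625, 4766 and 4659.5 RPM in Purkinje libraries, against 1619.5 and 1475 RPM in SST libraries (log2 change 1.69 ± 0.28 (SE), limma adjusted p = 2.8e-05). In PV cells miR-34a stood at 11877 ± 147 RPM (SD, n = 2).

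Several further miRNAs, some of them intronic, were also higher in Purkinje cells. miR-652, in an intron of Tmem164, had 2736, 3247 and 3469 RPM in Purkinje libraries, against 773 and 1060.3 RPM in SST libraries (log2 change 1.79 ± 0.20 (SE)). miR-345-5p had 215, 313 and 247 RPM in Purkinje libraries, against 45.4 and 60.2 RPM in SST libraries (log2 change 2.29 ± 0.21 (SE)), and miR-676, in an intron of Eda, had 219, 279 and 371 RPM in Purkinje libraries, against 71.2 and 93.6 RPM in SST libraries (log2 change 1.79 ± 0.30 (SE)). In each case all Purkinje libraries were above both SST libraries. miR-151-5p had 3716, 4078 and 3508 RPM in Purkinje libraries, against 841 and 703 RPM in SST libraries (log2 change 2.29 ± 0.20 (SE)), and its other arm miR-151-3p was higher as well (1.44). Of the 6 names of the miR-28, miR-151 and miR-708 list, these and miR-28* were higher and no member was lower. miR-708, encoded in an intron of Tenm4, was not called, with 1636, 1507 and 1261 RPM in Purkinje libraries, against 1708 and 1454 RPM in SST libraries (log2 change -0.11 ± 0.27 (SE)), although DESeq2, and limma and edgeR with median-ratio factors, called it higher. miR-1983 had 564, 741 and 589 RPM in Purkinje libraries, against 68.8 and 116 RPM in SST libraries (log2 change 2.81 ± 0.22 (SE)). The near-identical names miR-1937a and miR-1937b were both higher with log2 changes of 3.93, as were miR-486 and miR-3107, which carried nearly equal reads in every library and count as 1 measurement, at 1538, 1502 and 1236 RPM in Purkinje libraries, against 249 and 314 RPM in SST libraries for miR-486. miR-486 is known from erythroid cells and muscle.

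The muscle miRNAs of the miR-1 and miR-133 families gave the largest increase. No miR-206 name was among those tested. miR-133a had 8019.9, 10404 and 8169.8 RPM in Purkinje libraries, against 52.4 and 50.9 RPM in SST libraries (log2 change 7.41 ± 0.19 (SE), limma adjusted p = 7.1e-18), with all Purkinje libraries far above both SST libraries. miR-133b, known from muscle and from midbrain dopaminergic neurons, had 8326, 10717 and 8376 RPM in Purkinje libraries, against 3.13 and 4.48 RPM in SST libraries (log2 change 11.21 ± 0.25 (SE), limma adjusted p = 1.8e-18). The mature strands of miR-133a and miR-133b are nearly identical. miR-133b reads amounted to 103% to 104% of miR-133a reads in Purkinje libraries and to 100% in whole cerebellum, against 5.97% and 8.8% in SST libraries and 6.76% to 19.2% in the other neocortical libraries. Whether reads were counted under both names was not tested, so the levels of both miR-133a and miR-133b in Purkinje cells are uncertain. The minor strand miR-133b* had 23, 33 and 63 reads in Purkinje libraries, and miR-133a* had 2, 2 and 1. In PV cells miR-133a stood at 1741 ± 441 RPM and miR-133b at 246 ± 17.2 RPM (SD, n = 2). miR-1, which is transcribed together with miR-133a in muscle, had 279.7, 283 and 243 RPM in Purkinje libraries, against 85.2 and 73.6 RPM in SST libraries (log2 change 1.76 ± 0.27 (SE), limma adjusted p = 1.4e-05). All 5 names of the list were higher and 3 of the calls held, beside a background of 13.0%. The 5 names together made up 1.83% ± 0.271 of Purkinje reads (SD, n = 3) and 0.0135% ± 0.000833 of SST reads (SD, n = 2). Without miR-133b the other 4 made up 0.915% ± 0.135 of Purkinje reads and 0.0131% ± 0.000928 of SST reads.

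**Figure D1:**
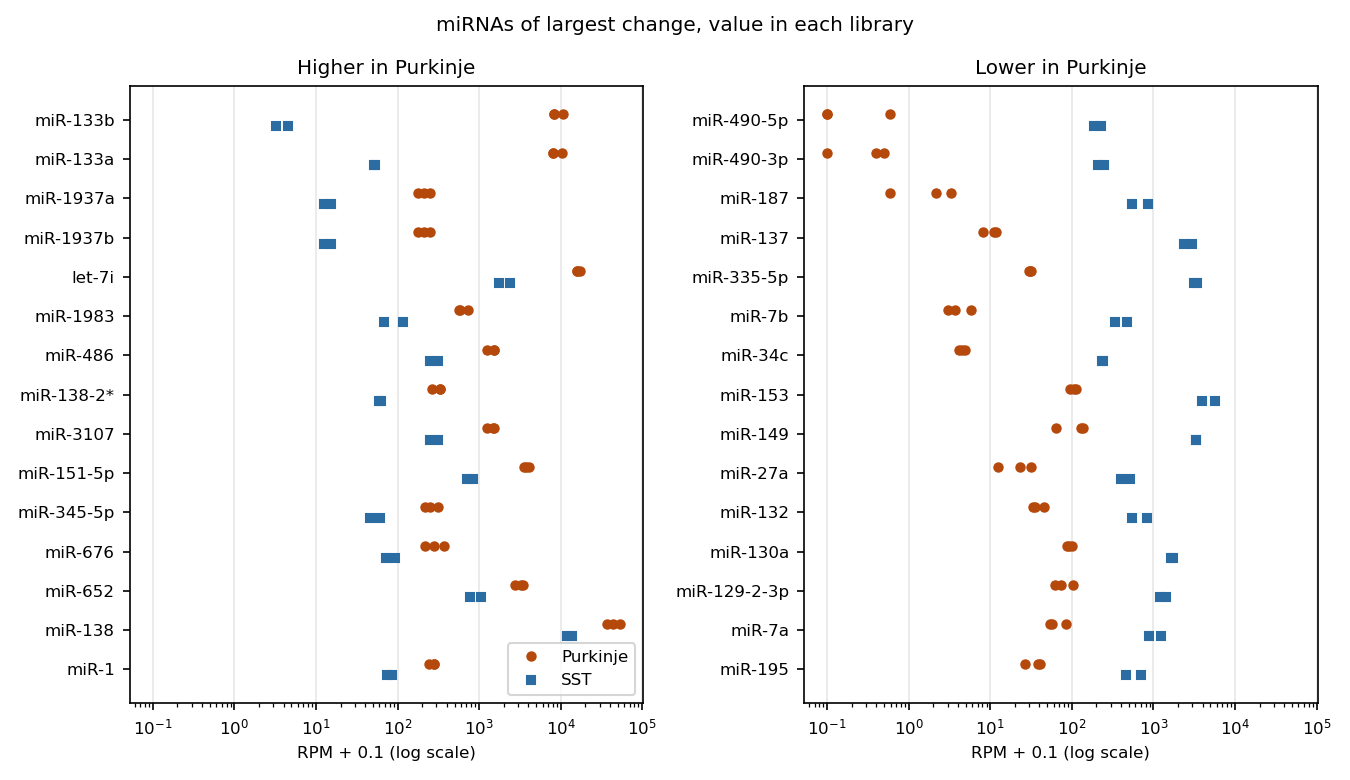
RPM + 0.1 on a log axis for the 15 most raised and 15 most lowered of the called miRNAs of at least 100 RPM, with 1 point per library (Purkinje, 3 circles; SST, 2 squares). No Purkinje value overlapped an SST value in any row, which the rule for naming them required. miR-133b showed a wide gap among the raised names and the miR-490 strands, at 2 reads or fewer in all Purkinje libraries together, among the lowered ones.

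Among the lower miRNAs, miR-137, a miRNA of neuronal maturation and synapse function, was 260-fold higher in SST cells. It had 11.1, 8.01 and 11.5 RPM in Purkinje libraries, against 2991 and 2359.5 RPM in SST libraries (log2 change -8.02 ± 0.26 (SE), limma adjusted p = 6e-16). miR-335-5p, encoded in an intron of the imprinted gene Mest, had 30.1, 30.8 and 31.4 RPM in Purkinje libraries, against 3444 and 3108 RPM in SST libraries (log2 change -6.73 ± 0.23 (SE), limma adjusted p = 1.1e-15). The Purkinje values of miR-335-5p lay close together, far below both SST values. miR-153, in an intron of Ptprn2 and known to act on synaptic vesicle release, had 112, 105 and 95.3 RPM in Purkinje libraries, against 5706 and 3982 RPM in SST libraries (log2 change -5.52 ± 0.24 (SE), limma adjusted p = 8.8e-14), and its minor strand miR-153* fell too (-5.90). miR-149, in an intron of Gpc1, had 136, 129 and 64.5 RPM in Purkinje libraries, against 3339 and 3284 RPM in SST libraries (log2 change -4.99 ± 0.26 (SE), limma adjusted p = 2.3e-12).

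Both miR-7 guides, which bind the circular RNA Cdr1as in brain, were lower. miR-7a had 53.8, 56.5 and 85.5 RPM in Purkinje libraries, against 1252 and 877 RPM in SST libraries (log2 change -4.04 ± 0.33 (SE), limma adjusted p = 1.8e-09). miR-7b had 2.91, 3.6 and 5.62 RPM in Purkinje libraries, against 478 and 334 RPM in SST libraries (log2 change -6.64 ± 0.35 (SE), limma adjusted p = 2.3e-12). Every Purkinje library lay far below both SST libraries for each of them. miR-132 and miR-212, which CREB induces with neuronal activity, lie together at chr11:75173388-75173747 (GRCm38.p6), and all 4 of their strands were lower with calls that held. miR-132 had 35.4, 45.6 and 32.9 RPM in Purkinje libraries, against 842 and 552 RPM in SST libraries (log2 change -4.18 ± 0.24 (SE), limma adjusted p = 6.9e-12), and miR-212-3p had 32.5, 23.6 and 15.1 RPM in Purkinje libraries, against 213 and 134 RPM in SST libraries (log2 change -2.90 ± 0.33 (SE)). The activity list had 5 of 6 members lower, a median of -2.86, and all 5 calls held, beside a background of 38.7%.

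miR-490, in an intron of the muscarinic receptor gene Chrm2, lay under the floor of 3 reads in every Purkinje library. miR-490-3p had 2 reads in all 3 Purkinje libraries, against 866 reads in both SST libraries. Scaled to depth this is a ratio of SST over Purkinje of 920.1 (exact 95% interval 253.9 to 7609, counting error only). miR-490-5p had 1 read in Purkinje libraries and 756 in SST libraries, with a ratio of 1606 (exact 95% interval 287.5 to 63530). miR-187 had 0.485, 3.2 and 2.07 RPM in Purkinje libraries, against 551 and 855 RPM in SST libraries (log2 change -8.73 ± 0.51 (SE), limma adjusted p = 7e-12). miR-34c, which shares the seed GGCAGUG with miR-34a, was lower at 4.36, 4 and 4.74 RPM in Purkinje libraries, against 232 and 243 RPM in SST libraries (log2 change -5.74 ± 0.30 (SE), limma adjusted p = 2.4e-12), and miR-34b-5p was lower at 1.94, 1.2 and 1.48 RPM in Purkinje libraries, against 53.2 and 49.6 RPM in SST libraries (31.9-fold higher in SST cells). Within the miR-34 list of 6 names, 1 was therefore higher and 4 were lower, and all 5 calls held.

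The miR-15/16 family, which brakes the cell cycle, was split. miR-16 had 1431, 1143 and 653 RPM in Purkinje libraries, against 11642 and 10346 RPM in SST libraries (log2 change -3.42 ± 0.25 (SE), limma adjusted p = 2.8e-10), and miR-15a had 89.7, 102 and 46.8 RPM in Purkinje libraries, against 1014 and 1290.2 RPM in SST libraries (log2 change -3.92 ± 0.25 (SE), limma adjusted p = 4.5e-11). Both were lower in every Purkinje library. miR-195 and miR-497 were lower as well, at 40.2, 38.8 and 26.6 RPM in Purkinje libraries, against 705 and 461 RPM in SST libraries for miR-195 and 27.1, 28 and 23.1 RPM in Purkinje libraries, against 205 and 241 RPM in SST libraries for miR-497 (log2 changes -4.04 ± 0.24 (SE) and -3.09 ± 0.22 (SE)). miR-15b was higher, with 137, 139 and 60.1 RPM in Purkinje libraries, against 31.3 and 34.6 RPM in SST libraries (log2 change 1.66 ± 0.35 (SE), limma adjusted p = 0.00038), and its minor strand miR-15b* had 1.45, 2 and 1.18 RPM in Purkinje libraries, against 0 and 0 RPM in SST libraries. These miRNAs are encoded in pairs, miR-15a and miR-16 at chr14:61631880-61632096 in Dleu2 and miR-15b with the second copy of miR-16 at chr3:69009772-69009996 in Smc4 (GRCm38.p6). Reads of miR-16 cannot be divided between the copies. Over the list of 13 tested names, 2 were higher and 8 lower, and the 2 higher and 6 of the lower calls held. The family summed to 816 to 1733 RPM in Purkinje libraries, against 12410 and 13620 RPM in SST libraries.

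In the miR-130 and miR-301 list 4 of 6 names were lower and 3 of these calls held, beside 38.7% and 25.3% over all names. miR-130a had 93.1, 88.1 and 101 RPM in Purkinje libraries, against 1644 and 1750.4 RPM in SST libraries (log2 change -4.18 ± 0.22 (SE), limma adjusted p = 2.7e-12) and miR-130b 9.21, 6.41 and 15.4 RPM in Purkinje libraries, against 127 and 96.4 RPM in SST libraries (log2 change -3.50 ± 0.34 (SE)). miR-301a, with the same seed, had 545, 356 and 418 RPM in Purkinje libraries, against 766 and 564 RPM in SST libraries, and its call did not hold (log2 change -0.60 ± 0.23 (SE)). miR-23a and miR-27a, encoded with a copy of miR-24 at chr8:84208518-84208921 (GRCm38.p6), were lower with calls that held, miR-27a with 22.8, 31.6 and 12.4 RPM in Purkinje libraries, against 521 and 398 RPM in SST libraries (log2 change -4.45 ± 0.32 (SE), limma adjusted p = 2.1e-10) and miR-23a with 74.2, 86.5 and 34.3 RPM in Purkinje libraries, against 762 and 539 RPM in SST libraries. miR-24 was called lower on the deposited scale but by none of the 5 other scalings or count tests, and its reads cannot be divided between chromosome 8 and a second copy on chromosome 13. miR-27b, which shares the seed of miR-27a and comes from chromosome 13, was not called, with 1764, 1979 and 1516 RPM in Purkinje libraries, against 2184 and 2255 RPM in SST libraries.

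Brain-enriched miRNAs included the most abundant names. miR-124, the main miRNA of neurons, had 285643, 301890.0 and 290083 RPM in Purkinje libraries, against 152658 and 155394 RPM in SST libraries (log2 change 0.93 ± 0.18 (SE), limma adjusted p = 0.00013), and miR-9, which acts in neural progenitors and in neurons, had 101603, 97849 and 86611 RPM in Purkinje libraries, against 68021 and 64935 RPM in SST libraries (log2 change 0.52 ± 0.16 (SE), limma adjusted p = 0.0082). Both were higher in all Purkinje libraries and both calls held. miR-29a, of the family that accumulates in mature neurons, was lower, at 19865, 23138 and 20416 RPM in Purkinje libraries, against 52884 and 60206 RPM in SST libraries (log2 change -1.42 ± 0.17 (SE), limma adjusted p = 3.9e-07). miR-29b was the most abundant name in SST cells, at 18% of reads, above miR-124 at 15.4%. In Purkinje cells miR-29b ranked below miR-124 alone, at 12.69% of reads. The lower call of miR-29b did not hold and its direction turned with the scaling (log2 change -0.51 ± 0.18 (SE) on the deposited scale, 0.13 with TMM factors). miR-181a had 12917, 9760.4 and 13376 RPM in Purkinje libraries, against 45148 and 48424 RPM in SST libraries (log2 change -1.97 ± 0.21 (SE), limma adjusted p = 7.5e-08) and miR-181b 2820.0, 2377 and 3269 RPM in Purkinje libraries, against 11240.5 and 12609 RPM in SST libraries (log2 change -2.09 ± 0.15 (SE)). The miR-181 list of 10 names made up 1.88% ± 0.33 of Purkinje reads (SD, n = 3) and 6.29% ± 0.384 of SST reads (SD, n = 2). The neuronal list of 40 names had 6 higher and 20 lower, of which 6 and 17 held, with a median of -1.98. Its sum was 45.3% ± 0.404 of Purkinje reads (SD, n = 3) and 28.2% ± 0.328 of SST reads (SD, n = 2), with miR-124, miR-9 and miR-138 among its higher members.

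**Figure D2:**
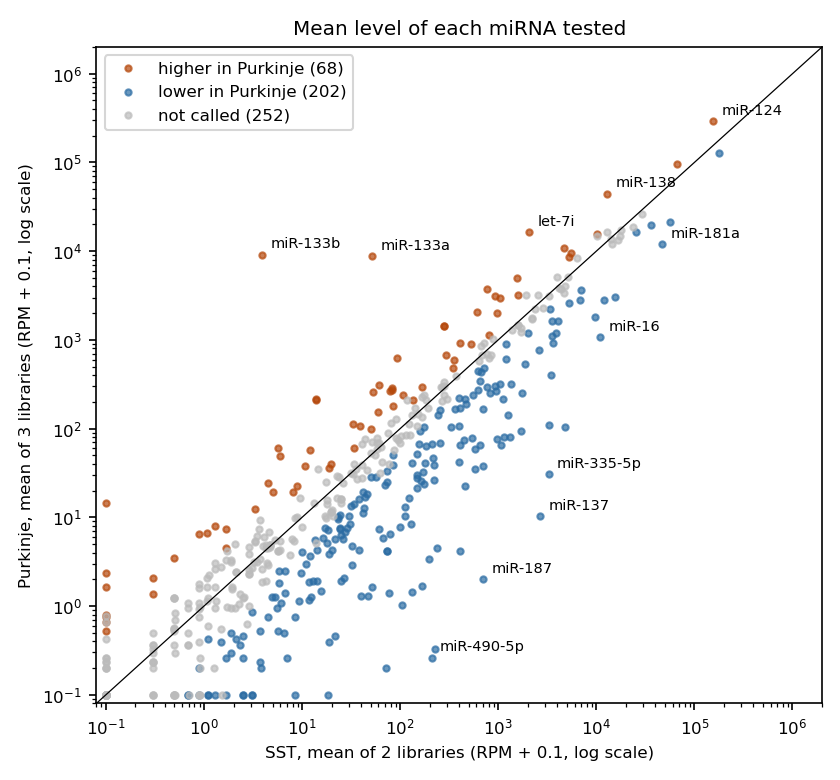
Mean RPM + 0.1 in Purkinje cells (3 libraries, vertical log axis) against SST cells (2 libraries, horizontal log axis) for the 522 tested miRNAs, coloured by the limma call on the deposited scale. Of the points, 68 were called higher and 202 lower, and miR-124, let-7i and miR-138 lay above the line of equal level while miR-137, miR-335-5p and miR-187 lay far below it.

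Some guides come from more than 1 hairpin, and their minor strands are numbered by hairpin. This set was examined after the values had been seen. There were 41 such minor strands of 23 guides. Among them let-7a-1* and let-7c-2* had the same log2 change (-0.92) and mean level (20.5 RPM). These strands cannot be told apart here and count as 1 measurement. Of the 41, limma called 4 higher and 12 lower (13.0% and 38.7% over all names), and 2 guides had strands called in both directions. The miR-129 strands were a case of this. miR-129-1-3p had 294, 329 and 183 RPM in Purkinje libraries, against 61.8 and 102 RPM in SST libraries (log2 change 1.71 ± 0.32 (SE), limma adjusted p = 9.9e-05), while miR-129-2-3p had 104, 74.1 and 62.2 RPM in Purkinje libraries, against 1426 and 1206 RPM in SST libraries (log2 change -4.07 ± 0.23 (SE), limma adjusted p = 6.8e-12). The groups were apart for both strands, in opposite directions, and both calls held. In the miR-181a pair, miR-181a-1* had 36.4, 41.6 and 44.1 RPM in Purkinje libraries, against 84.5 and 182 RPM in SST libraries (log2 change -1.61 ± 0.28 (SE)) and miR-181a-2* had 1.94, 1.2 and 3.55 RPM in Purkinje libraries, against 0 and 0 RPM in SST libraries, the second with at most 12 reads in any of the 5 libraries. Another guide with unlike calls was miR-30c, with miR-30c-1* lower at 8.24, 6.81 and 10.1 RPM in Purkinje libraries, against 23.5 and 38.2 RPM in SST libraries, beside miR-30c-2*, which was not called (log2 changes -1.85 and -0.18).

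The imprinted Dlk1-Dio3 domain on chromosome 12 encodes many brain miRNAs from the maternal chromosome. Its distal part had 66 tested names, 7 of them higher and 38 lower, with a median of -1.22 beside -0.53 over all names. Of all names 13.0% were higher and 38.7% lower. Only 5 of the higher and 21 of the lower calls held, where 11.9% and 25.3% of all names had such calls. With TMM factors 9 were higher and 27 lower. miR-487b had 387, 477 and 335 RPM in Purkinje libraries, against 3575 and 3354 RPM in SST libraries (log2 change -3.13 ± 0.26 (SE), limma adjusted p = 1.8e-09), and miR-485 had 2.42, 2.4 and 5.03 RPM in Purkinje libraries, against 169 and 220.1 RPM in SST libraries (log2 change -5.92 ± 0.84 (SE), limma adjusted p = 4.3e-06). Members that went the other way with calls that held were miR-494, miR-376c, miR-329, miR-377 and miR-3072 (log2 changes 2.40, 1.24, 0.92, 0.76 and 0.83). The proximal Meg3 and anti-Rtl1 names numbered 27, with 3 higher and 8 lower and a median of -0.25. With TMM factors that count turned to 8 higher and 5 lower. miR-127 was the most abundant lower member, at 1572, 1650.0 and 2187 RPM in Purkinje libraries, against 10591 and 8714 RPM in SST libraries (log2 change -2.43 ± 0.20 (SE), limma adjusted p = 2.1e-09), whereas miR-433 was higher (log2 change 1.22 ± 0.20 (SE)). Across the 43 names of the cluster at chr12:109709060-109743795 (GRCm38.p6), 3 were higher and 29 lower on the deposited scale, of which 3 and 17 held.

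Markers of other cell types differed between the pools in both directions, and their part in the results above was not tested. Their counts stand beside 13.0% higher and 38.7% lower over all names. The oligodendrocyte list had 2 of 5 names higher, miR-219-5p with 80.5, 63.7 and 36.4 RPM in Purkinje libraries, against 6.26 and 4.88 RPM in SST libraries (log2 change 3.35 ± 0.38 (SE), limma adjusted p = 2.2e-07) and miR-338-3p, in an intron of Aatk, with 3071, 2619 and 3149.8 RPM in Purkinje libraries, against 932 and 1154 RPM in SST libraries (2.83-fold). Its names summed to 2743 to 3249 RPM in Purkinje libraries, against 1011 and 1219 RPM in SST libraries. All 6 names of the choroid plexus and ependyma list were lower with calls that held, at sums of 10.95 to 18.9 RPM in Purkinje libraries, against 425.4 and 429.7 RPM in SST libraries. Of these, miR-204, in an intron of Trpm3, had 11.1, 9.21 and 4.44 RPM in Purkinje libraries, against 129 and 127 RPM in SST libraries, and 2 of the 6 names had no read in any Purkinje library. The other members are miR-204* and both arms of miR-34b and of miR-34c, which are also in the miR-34 list above. The list averaged 0.043% of reads in SST, 0.013% in PV, 0.011% in Gad2 and 0.0088% in Camk2a libraries. It averaged 0.011% in whole neocortex and 0.17% in whole cerebellum. Which cells these reads came from was not tested. The vascular list had 2 of 3 names lower, with miR-126-3p of endothelium at 223, 262 and 230.3 RPM in Purkinje libraries, against 568 and 542 RPM in SST libraries, and sums of 322.9 to 424 RPM in Purkinje libraries, against 734 and 766.4 RPM in SST libraries. In the blood and microglia list 2 of 14 names were higher, both of them arms of miR-486, and 3 were lower, of which the miR-146b call held. Its sums were 1366 to 1677 RPM in Purkinje libraries, against 772.7 and 816.4 RPM in SST libraries, while miR-451, the defining erythroid miRNA, had 40.2, 47.2 and 33.1 RPM in Purkinje libraries, against 38.3 and 28.5 RPM in SST libraries. miR-451 was not called on the deposited scale but was called higher with all 5 other scalings or count tests. miR-146a was high in 1 Purkinje library alone, with 0.485, 14.4 and 0.296 RPM in Purkinje libraries, against 15.6 and 20.3 RPM in SST libraries. The astrocyte and glia list had 4 of 9 names lower, near the 38.7% over all names, and 3 of these calls held. Its sums were 26810 to 29410 RPM in Purkinje libraries, against 28740 and 36640 RPM in SST libraries. Most of this was miR-22, at 2.615% of Purkinje and 2.957% of SST reads, beside 2.776% and 3.269% for the list. miR-22 was among the 10 most abundant names of both classes. It was not called on the deposited scale but was called higher with all 5 other scalings or count tests.

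**Figure D3:**
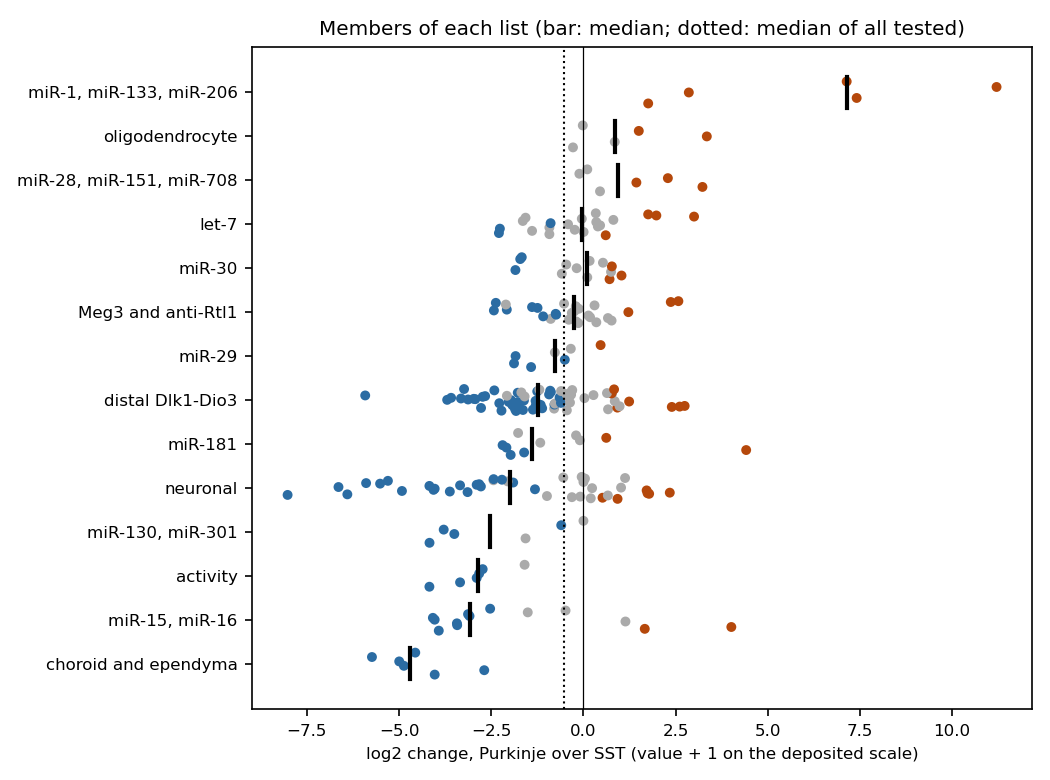
Log2 change, Purkinje over SST, of every tested member of 14 lists (1 point per name; orange, called higher; blue, called lower; grey, not called; bar, median of the list; dotted line, median of all 522 names at -0.53). The names of the miR-1, miR-133 and miR-206 list, none of them miR-206, lay to the right. The choroid plexus and ependyma, miR-15/16 and activity names lay mainly to the left.

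Among the remaining families, miR-30 had 3 names higher and 3 lower of 13 (median 0.10), miR-99 and miR-100 had 1 higher and 4 lower of 6, and miR-29 had 1 higher and 4 lower of 7. Over all names 13.0% were higher and 38.7% lower. All the miR-30 calls held, but with TMM factors 7 of its names were higher and 3 lower, and in the miR-99 and miR-100 list and the miR-29 list 1 higher and 2 lower calls held each. In the miR-30 list miR-30b was higher at 3605, 3542 and 2568 RPM in Purkinje libraries, against 1960.5 and 1248 RPM in SST libraries and the miR-384 strands were lower, miR-384-5p with 1286, 1145 and 1125 RPM in Purkinje libraries, against 4551 and 3128 RPM in SST libraries, although miR-384-5p shares the miR-30 seed. miR-99a, which lies beside let-7c on chromosome 16, had 995, 1308 and 1003 RPM in Purkinje libraries, against 2995 and 4119 RPM in SST libraries (log2 change -1.68 ± 0.18 (SE), limma adjusted p = 8.6e-08). miR-125a-5p had 2084, 1653 and 1133 RPM in Purkinje libraries, against 4880.5 and 3306 RPM in SST libraries (log2 change -1.35 ± 0.25 (SE)), and 3 of the 5 names of the miR-125 list were lower. The miR-221 and miR-222 list had 2 of 4 names lower, with miR-221 at 7.75, 5.61 and 3.85 RPM in Purkinje libraries, against 71.2 and 61 RPM in SST libraries. In the miR-103 and miR-107 list limma called 0 of 5 names on the deposited scale, with 0 at an unadjusted p under 0.05. edgeR called 0 and DESeq2 called 1, miR-107, which limma with median-ratio factors also called higher. In the miR-200 and miR-141 list (2 tested, both arms of miR-141) and the miR-183 cluster (1 tested, miR-182) limma, edgeR and DESeq2 called 0. None had an unadjusted p under 0.05 in limma. In the miR-17-92 clusters 1 of 18 names was higher and 2 were lower, against 6 higher and 1 lower with TMM factors. In the Sfmbt2 cluster, whose names share reads, 40 of 47 were not called. The miR-26 list had 3 of 5 names lower and the miR-23, miR-24 and miR-27 list 3 of 11. Of the 2 arms of miR-148b 1 was lower, beside 38.7% over all names. None of the calls of miR-26, miR-24 and miR-148b held.

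The other neocortical classes placed some of these levels. The comparison libraries below were not tested here against either class. miR-187 stood at 1.92 ± 1.37 RPM in Purkinje cells, 703 ± 215 in SST cells, 7.97 ± 0.346 in PV cells, 172 ± 32.2 in Gad2 cells and 4.83 ± 0.577 in Camk2a cells (SD over the libraries of each group). miR-7b stood at 4.04 ± 1.41 RPM in Purkinje cells, 406 ± 102 in SST cells, 24.7 ± 2.28 in PV cells, 98.9 ± 15.6 in Gad2 cells and 96.9 ± 31.5 in Camk2a cells. Both were highest in SST cells among these classes, and the PV level lay below that of SST and Gad2 cells. miR-137 was low in Purkinje and PV cells, at 10.2 ± 1.94 and 229 ± 23.8 RPM, against 2675 ± 447 in SST, 2221 ± 680.2 in Gad2 and 5013 ± 556 RPM in Camk2a cells. miR-138 was highest in Purkinje cells, at 44511 ± 8473 RPM, with 12815 ± 1171 in SST, 8090.4 ± 633 in PV, 6907 ± 1955 in Gad2 and 7737 ± 1825 RPM in Camk2a cells. let-7i stood at 16399 ± 909 RPM in Purkinje cells, 2071 ± 441 in SST, 2007 ± 264 in PV, 3343 ± 865 in Gad2 and 6987 ± 651 RPM in Camk2a cells.

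The cell contrast was then set against the change between the regions. The difference tested was Purkinje minus SST less Cerebellum minus Neocortex, and its cell and tissue contrasts use separate libraries, those of the tissues taken with anti-Ago2. It was called for 233 of 522 names (44.6%), 91 positive (17.4%) and 142 negative (27.2%), and the tissue contrast itself was called for 290 names (55.6%). At 100 RPM or more, 115 of 178 names were called, 50 positive and 65 negative. Of these 178, 64 were called in both contrasts with the same sign and 21 in the cell contrast alone. In 56 names (10.7%) both contrasts were called with opposite sign, 36 of them at 100 RPM or more, and 28 of these had a cell call that held. The log2 changes of the contrasts correlated weakly across the 178 names (Pearson r = 0.283 across miRNAs, which are not independent replicates).

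miR-195 and miR-497 were lower in Purkinje than in SST cells but higher in whole cerebellum, at 4111 ± 177 RPM of miR-195 in Cerebellum and 341 ± 50.7 in Neocortex, and 4676 ± 415 and 298 ± 50.4 RPM of miR-497 (SD, n = 3 each). Their differences were -7.63 ± 0.33 (SE), adjusted p = 2.2e-13 and -7.07 ± 0.29 (SE), adjusted p = 2.2e-13. miR-16, miR-130a and miR-129-2-3p showed the same reversal, with differences of -5.19 ± 0.33 (SE), adjusted p = 8.3e-11, of -5.95 ± 0.30 (SE), adjusted p = 1.9e-12 and of -5.44 ± 0.31 (SE), adjusted p = 1.6e-11. Going the other way, miR-138 was higher in Purkinje than in SST cells but stood at 2102 ± 461 RPM in Cerebellum and 4666 ± 1105 in Neocortex (difference 2.93 ± 0.35 (SE), adjusted p = 7.3e-07). miR-1 stood at 28.1 ± 4.85 RPM in Cerebellum and 259 ± 102 in Neocortex (difference 4.87 ± 0.37 (SE), adjusted p = 9.9e-10). miR-127 was lower in both contrasts, with 815 ± 21.5 RPM in Cerebellum and 5004 ± 1371 in Neocortex, and its difference was not called on the deposited scale (0.15 ± 0.27 (SE), adjusted p = 0.68) but was with TMM factors (0.75 in limma, adjusted p = 0.0359). The difference of miR-29a was not called by limma on either scale (0.02 ± 0.23 (SE), adjusted p = 0.96 as deposited, and 0.62, adjusted p = 0.053 with TMM factors). miR-137 was lower in both contrasts, but by more between the cells (difference -3.73 ± 0.35 (SE), adjusted p = 1.9e-08). miR-708, not called between the cells on the deposited scale, was low in cerebellum, at 120.4 ± 11.8 RPM and 1888 ± 677 in Neocortex (difference 3.79 ± 0.37 (SE), adjusted p = 3.4e-08).

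**Figure D4:**
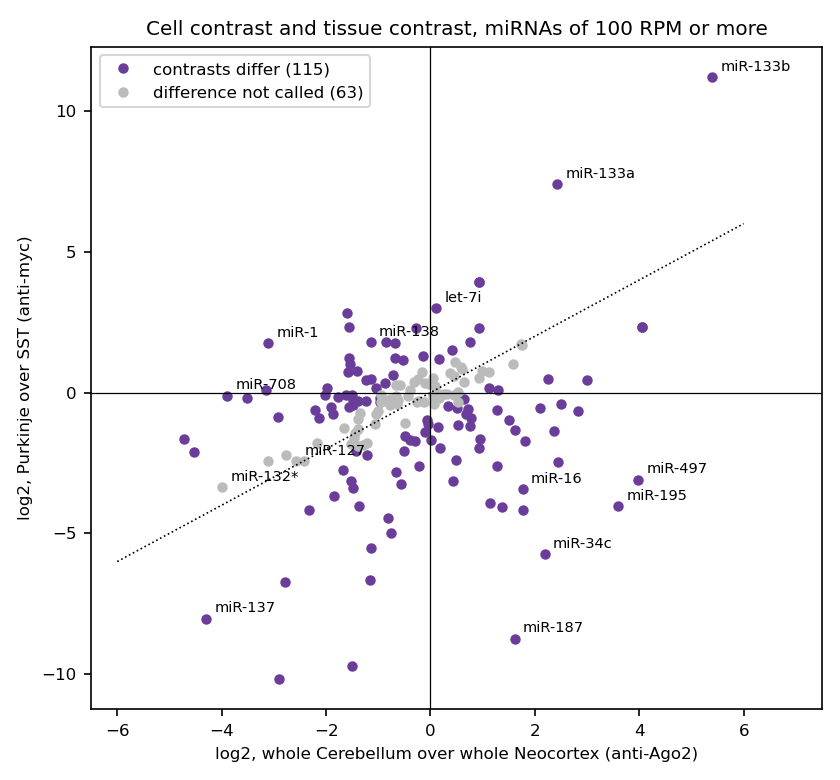
Log2 change of Purkinje over SST (vertical) against that of whole Cerebellum over whole Neocortex (horizontal) for the 178 miRNAs of at least 100 RPM, with the dotted line of equal change. Names of which the 2 contrasts differed in limma (115) lie off the line, miR-195 and miR-497 below it on the right and miR-138 and miR-1 above it on the left.

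Strand use within hairpins was compared as the log2 ratio of minor-arm over major-arm reads. Here the major arm is the one with the larger mean share of reads over the 19 libraries, whatever its name. Of 171 hairpins with enough reads, limma called 40 (23.4%), the ratio with an offset of 0.5 reads being higher in Purkinje cells for 14 (8.19%) and lower for 26 (15.2%). In 31 of the 40 every one of the 5 libraries had at least 20 reads of the hairpin, and the ratio was higher in Purkinje cells in 7 of them, of which 6 also had the higher mean minor share. Ratios of hairpins with few or no minor-arm reads depend on the offset, and in 4 of the 14 and 2 of the 26 the mean minor share went the other way than the ratio. The dependence holds for those of miR-133a, miR-133b, miR-672, miR-7b and miR-296. In miR-485 the strand named miR-485 had 5, 6 and 17 reads beside 424, 487 and 374 of miR-485* in Purkinje libraries, against 216 and 541 beside 223 and 261 in SST libraries. Its share was 2.24% ± 1.82 in Purkinje cells (SD, n = 3) and 58.3% ± 12.9 in SST cells (SD, n = 2), with a ratio change of -6.14 ± 0.68 (SE, limma adjusted p = 1.6e-06). The miR-485* strand was not called on the deposited scale (log2 change 0.27 ± 0.29 (SE)) and was called higher with all 5 other scalings or count tests.

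The miR-7a hairpins showed the opposite. Their minor strands had 57.5%, 60.2% and 39.2% of the reads in Purkinje libraries, against 3.96% and 6.99% in SST libraries (ratio change 4.29 ± 0.49 SE, adjusted p = 1.7e-06). The guide miR-7a fell, while miR-7a-1* was not called on the deposited scale (log2 change 0.23 ± 0.28 (SE)) and was called higher with all 5 other scalings or count tests. miR-544-3p took 82.4%, 84.4% and 87.4% of its hairpin's reads in Purkinje libraries, against 37.5% and 25.3% in SST libraries (ratio change 3.60 ± 0.47 SE, adjusted p = 1.1e-05). In miR-325, miR-325* took 3.51%, 4.39% and 9.78% in Purkinje libraries, against 34.9% and 18.4% in SST libraries (ratio change -2.60 ± 0.48 SE, adjusted p = 0.00058). The libraries of the groups did not overlap in any of these 4 hairpins. miR-28* also took a larger share in Purkinje libraries, at 32.7%, 39% and 44.6%, against 4.4% and 15% in SST libraries, but without SST replicate 1 the adjusted p was 0.0939.

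**Figure D5:**
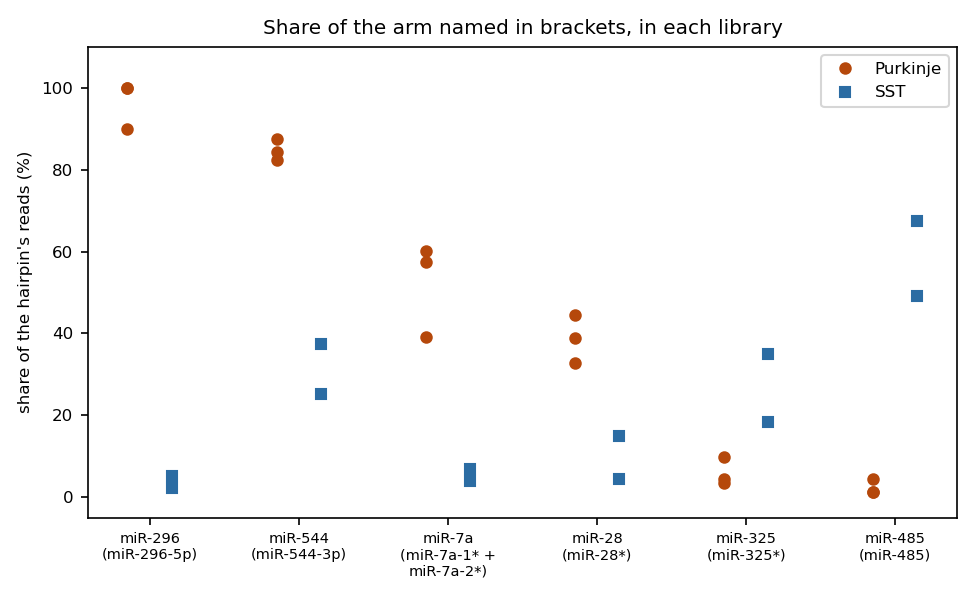
Share of the hairpin's reads (%) taken by the arm named under each hairpin, with 1 point per library (Purkinje, 3 circles; SST, 2 squares). The miR-485 share was 1.17% to 4.35% in Purkinje libraries, against 49.2% and 67.5% in SST libraries, and the miR-7a and miR-544 shares were higher in Purkinje libraries, while the miR-296 points rest on 3 to 10 reads in each Purkinje library.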

How the data were processed

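The table gives 528 miRNA names with a signal that, per the file headers, the authors scaled to miRNA reads per 1000000. Since each column added up to 10000000, RPM here is the deposited value over 10. The submitters' processing notes name Bowtie, without a version, and mm9. Another 120 rows held no name and were left out. Dividing a column by the value of 1 read gave whole numbers, within 0.006 on the deposited scale, in all 19 libraries, which recovered their depth. On those reads edgeR with TMM factors called 257 names.

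The main test was limma 3.58.1 with a trend (R 4.3.3) on log2(deposited value + 1), in 1 fit of 7 group means over the 19 libraries. The 522 names kept had a value of 1 or more in at least 2 libraries. Adjustment was by Benjamini and Hochberg over all of them, with calls under 0.05. A fold is 2 raised to the fitted log2 change. Arm ratios used log2 of recovered reads plus 0.5 where a hairpin reached 20 summed reads in 2 libraries and averaged 5 reads per arm. The major arm was the one with the larger mean share of reads over the 19 libraries. Arms were assigned by hand only to match names to sequences.

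Named miRNAs were the 15 most raised and 15 most lowered called names of at least 100 RPM without overlap between groups, the 10 most abundant per group, up to 4 called members of at least 10 RPM per list, the 10 hairpins of largest called ratio change and the 10 of largest called difference between contrasts in each direction. Further names, such as minor strands and members not called, were added after their values had been seen. Members and lists were chosen with earlier results of these data known.

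Alternatives were edgeR 4.0.16 with TMM and relative log expression (RLE) factors, DESeq2 1.42.0, division by those factors, pseudocounts of 10 and 0.1, other filters, the 5 libraries alone, a replicate block and leaving out each library. On simulated data (20 draws, 522 names) the cell contrast recovered 45.1% of 2-fold and 76.8% of 4-fold changes with 7.63% of calls false. The difference of contrasts recovered 28.7% and 69.2%, with 6.36% false. Of 4-fold arm ratio changes over 171 hairpins, 55.8% were recovered with 13.5% false. Chi-square over its degrees of freedom was 38.8 to 146.6 between Purkinje libraries and 55.32 between SST libraries, above counting error. Sequences and coordinates are from RefSeq (GRCm38.p6).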

Additional observations from a re-analysis of the deposited data

Results flagged for a closer look

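This list was limited to miRNAs picked by the naming rules, of at least 100 RPM and with a cell call that held. For 18 of them the cell contrast and the tissue contrast were both called in limma with opposite signs. In each the difference of the contrasts was itself called by limma. The difference is the log2 change of Purkinje over SST less that of Cerebellum over Neocortex, and antibody and pooling changed with the tissue libraries, which cannot be told apart from the cells. Of the miRNAs that were lower in Purkinje than in SST cells and higher in whole cerebellum than in whole neocortex, miR-187 gave -10.34, miR-34c -7.92, miR-195 -7.63, miR-497 -7.07, miR-130a -5.95 and miR-129-2-3p -5.44. miR-16 gave -5.19, miR-15a -5.07, miR-125a-5p -3.71 and miR-181a -2.90. Of those higher in Purkinje cells and lower in whole cerebellum, miR-1 gave 4.87, miR-1983 4.40, miR-138-2* 3.91, miR-138 2.93, miR-676 2.65, miR-98 2.43, miR-29c* 1.60 and miR-181c* 1.34.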

How the results depend on the processing

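On the deposited scale 68 miRNAs were higher in Purkinje cells, against 114 with edgeR and TMM factors, 125 with edgeR and RLE factors, 124 with DESeq2, and 121 and 133 after division by TMM and RLE factors. The difference of contrasts had 91 positive calls, against 144 with edgeR and 149 after division by TMM factors. The log2 change of miR-22 turned positive in those 5 settings (0.47, 0.54, 0.54, 0.47 and 0.53), as did miR-29b (0.14, 0.21, 0.21, 0.13 and 0.20), miR-301a (0.06, 0.11, 0.11, 0.03 and 0.10) and miR-376a (0.01, 0.10, 0.10, 0.03 and 0.09). The uncalled changes of miR-125b-5p (-0.04) and miR-29c (-0.34) were also positive in all 5 (0.59 to 0.66 and 0.29 to 0.36), and that of miR-125b-5p was then called with edgeR and RLE factors (0.66). Of the named log2 changes, 71 of 94 kept their call in all alternatives run, with the same direction where they were called. Changes that were never called, such as that of miR-29c, counted as kept even where the sign turned. Of the differences of contrasts 20 of 20, and of the arm ratios 8 of 10, kept direction and call. These differences and ratios were picked as the largest called ones. Smaller differences given above, such as those of miR-138 and miR-181a, were not among the 20, and that of miR-127 was called only with TMM factors.

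Arm ratio calls moved from 40 (14 higher, 26 lower) to 67 with 32 higher at an offset of 5 reads, and to 17 with 6 higher and 11 lower on the 5 libraries alone. Leaving out 1 library gave 24 to 40 arm calls, 8 to 16 of them higher and 16 to 25 lower, fewest without SST replicate 1. Without SST replicate 2 there were 16 lower. The cell contrast gave 244 to 271 calls without 1 library, where the lone SST library is assumed to vary like the other groups. The cause of these changes was not tested. With replicate number as a block 273 names were called, 269 of them shared with the fit without it, and the arm ratios gave 39. Same-numbered libraries correlated at 0.145 and 0.104 in their deviations from the group means. With 2 SST libraries those deviations mirror each other, so these values cannot tell whether same-numbered libraries share a batch. Low names are limited by the floor of 3 reads and by 2 SST libraries.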
